A study of Mus musculus with 16 samples.

Results

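The clustered protocadherins are a family of neuronal cell surface proteins encoded in 3 neighbouring clusters on mouse chromosome 18. Members were the protein-coding genes of GENCODE M21 on that chromosome whose symbols begin with Pcdha, Pcdhb or Pcdhg, followed by a number or by the letters a, b or c. There are 57 of them among 21951 protein-coding genes. They comprise 14 alpha genes (12 alternate genes and the C-type genes Pcdhac1 and Pcdhac2), 22 beta genes and 21 gamma genes (12 of the A type, 6 of the B type and 3 of the C type). All lie on the plus strand of GRCm38, the alpha cluster at chr18:36930184-37187661, the beta cluster at chr18:37264938-37524479 and the gamma cluster at chr18:37661793-37841873. Pcdhgb8, annotated as a polymorphic pseudogene, lies within the gamma cluster and falls outside the rule.

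In CaptureSeq, chosen RNAs are enriched by hybridization to probes before they are sequenced. The study captured RNA of adult C57BL/6J mice with a lncRNA design, against annotated or putative long noncoding RNA regions, and with a splice junction design, against known exon junctions. From brain, 4 tissues were taken (olfactory bulb, cortex, cerebellum and the whole brain), and from other organs 4 more (liver, kidney, heart and one labelled testis), with 1 library per tissue and design and 16 libraries in all. The mice carried no mutation or treatment, and the number of mice is not given in the sources used here. Brain RNA was extracted with TRIzol and nonbrain RNA with RNeasy, from pooled pieces of an organ of the same mouse, and the tissue classes were captured in separate pools, with more cycles of PCR after capture for nonbrain than for brain libraries. These steps cannot be told apart from the difference between brain and nonbrain. Of the ERCC spike-ins, mix 1 went into heart, liver, cerebellum and whole brain, and mix 2 into the remaining tissues. With 1 library per tissue, the spread in each test is that between tissues of a class, not between mice, and the 3 brain subregions are parts of the whole brain.

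Every variable exon of these clusters encodes a complete extracellular domain and has its own promoter. In the alpha and gamma clusters it is spliced to 3 constant exons shared by the cluster, which encode the common cytoplasmic tail, whereas the beta genes have no constant exons. A single neuron switches on a few alternate promoters, a choice linked to CTCF, cohesin and DNA methylation, while the C-type exons are used more uniformly. The proteins bind copies of themselves on other membranes, and this homophilic recognition is known for its role in self-avoidance of dendrites and axons and in neuronal survival. In bulk tissue the values average over these choices, and fewer cells that use an exon cannot be told apart from less RNA per cell.

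Because transcripts of a cluster share constant exons, each assembled transcript was assigned to a member by overlap with its variable exon on the same strand, and the values of a member's transcripts were summed. A value is a normalized estimate of fragments, on the scale that the authors deposited. The assembly held 19 alpha, 25 beta and 22 gamma transcripts of this kind, all alpha and gamma transcripts ran into the constant exons, and 20 of the beta transcripts had a single exon. The constant exons measured 59, 89 and 2712 nt in the alpha cluster and 59, 89 and 1971 nt in the gamma cluster. Members joined by a transcript were counted as 1 unit, as for Pcdhb17 with Pcdhb18 and Pcdhb21 with Pcdhb22, which left 52 units. Pcdhga4, Pcdhga8 and Pcdhga11 had no transcript that began in their exon. The exon of Pcdhga4 lay inside a transcript that began at Pcdhgb1, that of Pcdhga11 inside one that began at Pcdhgb7, and Pcdhga8 had none. GENCODE M21 gives the symbol Pcdha11 to 2 genes, and the one with the identifier ENSMUSG00000007440.10 is called Pcdha10 here, as in RefSeq on GRCm38.p6.

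With the lncRNA design the libraries held 8930243 to 21113092 fragments, spike-ins included, and 1 fragment was worth a value of 1.14 to 4.77. With the splice junction design they held 14309235 to 43889289 fragments, and 1 fragment was worth 0.289 to 1.60. Summed neuron markers were at 8296 to 20600 in brain and 4.56 to 48.9 in nonbrain tissues in the lncRNA design, and at 24084 to 35750 and 16.5 to 908 in the splice junction design. The label testis was contradicted by the markers. Germ cell markers in that tissue summed to 12.5 in the lncRNA and 17.1 in the splice junction design, against 19.6 to 39.1 and 181 to 585 in brain, whereas keratinocyte markers summed to 8758 and 93652 there, against at most 894 and 3647 in any other library. The main results are given with and without that tissue.

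The alpha cluster was detected in every brain library and was at or close to 0 outside the brain. In the lncRNA design its summed value was 174 in whole brain, 179.9 in cerebellum, 232 in cortex and 166 in olfactory bulb, against 4.77 in heart, 3.42 in the tissue labelled testis and 0 in kidney and liver. The splice junction design gave 67.1, 71.7, 94.1 and 66.0 in the same brain tissues, against 0.669 in kidney, 0.870 in liver and 0 in heart and the tissue labelled testis. The 2 groups did not overlap in either design, and all nonbrain values together rest on 4 and 2 fragments, against 511 and 835 in brain. Of the 4 nonbrain fragments of the lncRNA design, 3 came from the tissue labelled testis.

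Beta sums were higher in brain as well, with a clear signal outside it. They amounted to 4865, 3781, 4400 and 5055 in whole brain, cerebellum, cortex and olfactory bulb in the lncRNA design, against 1555 in heart, 353 in kidney, 249.6 in liver and 667 in the tissue labelled testis. The splice junction design gave 80.2, 108, 108 and 164 in brain, against 17.6, 7.35, 6.09 and 14.9 in the nonbrain tissues in the same order. On the deposited scale, heart had the highest nonbrain sum in both designs, under the lowest brain tissue. In the splice junction design this rank rested on 11 heart fragments worth 1.60 each, against 28 worth 0.533 each in the tissue labelled testis. Relative to all fragments outside the spike-ins, the tissue labelled testis was above heart in that design. Heart stayed the highest nonbrain tissue by this measure in the lncRNA design.

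Gamma sums were the largest of the clusters and the least restricted to brain. In the lncRNA design they were 42876, 36734, 18195 and 29488 in whole brain, cerebellum, cortex and olfactory bulb, against 21680, 8674, 4552 and 10916 in heart, kidney, liver and the tissue labelled testis. On the deposited scale heart thus exceeded cortex, on 4545 fragments worth 4.77 each, against 12965 worth 1.40 each. Relative to all fragments outside the spike-ins, heart was below cortex in that design. In the splice junction design the 4 brain tissues had 360.5, 538, 358 and 577, against 113, 58.2, 31.0 and 96.5, without overlap.

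On the log2(sum + 1) scale, averaged over the designs, brain minus nonbrain was 6.10 for alpha (6.89 ± 0.22 against 0.79 ± 0.45, SD, n = 4 each), 3.16 for beta (9.47 ± 0.25 against 6.32 ± 0.91) and 2.18 for gamma (11.85 ± 0.36 against 9.67 ± 0.87). Each difference had an exact two-sided permutation p of 0.0286 over 70 assignments of the tissues, the smallest this design can give, and 0.0286 after adjustment over the 3 clusters. Without the tissue labelled testis the differences were 6.19, 3.28 and 2.29, each with an exact p of 0.0571, the smallest that 4 against 3 tissues allow. The alpha difference depends on the value added before the logarithm, since the nonbrain sums are close to 0, and was 3.53 with 10 added. In the lncRNA design alone, the gamma difference was 1.62 with an exact permutation p of 0.0571, n = 4 each.

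**Figure D1:**
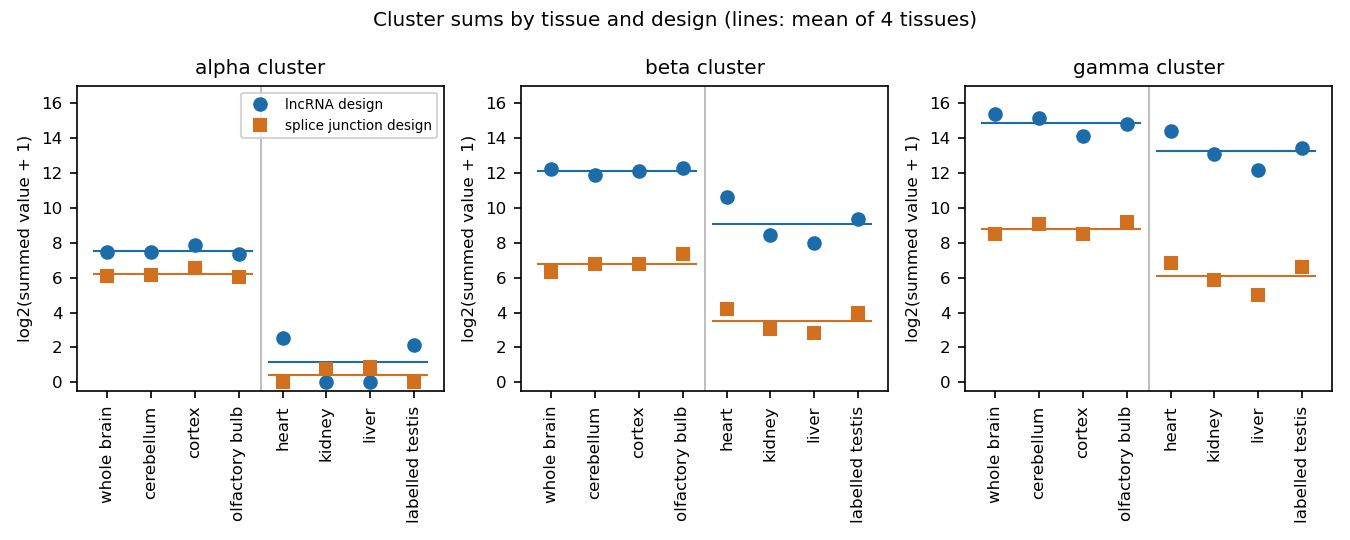
Summed values of the alpha, beta and gamma clusters as log2(sum + 1) (vertical axis) in each tissue (horizontal axis), with circles for the lncRNA design, squares for the splice junction design and lines at the mean of 4 tissues. Brain tissues lie to the left of the grey line. On this scale, only the gamma sums of the lncRNA design overlap between brain and nonbrain tissues.

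At the level of single exons, limma was fitted to all 30860 rows with a mean value of at least 10 (gene models, with the clusters split by first exon). Only 25 of the 52 units reached this mean, and 24 of them were higher in brain at an adjusted p under 0.05, where 22.8% of all rows were higher in brain and 8.18% lower. No unit was lower, neither at an adjusted nor at an unadjusted p under 0.05. Of the 25, 12 had a nonbrain mean under 10 and so reached the limit through their brain values, which favours a difference, and 13 passed on nonbrain values as well. The 12 were Pcdhac2, Pcdhb6, Pcdhb8, Pcdhb9, Pcdhb10, the unit of Pcdhb17 and Pcdhb18, Pcdhb20, Pcdhga2, Pcdhga3, Pcdhga5, Pcdhga6 and Pcdhga9. The median log2 difference of the 25 was 2.65, and that of all rows was 0.35. The averaged log2 values of brain tissues lay above those of all nonbrain tissues for 24 of the 25 tested units, against 22.9% of the rows tested, and for 25 of the 27 units under the limit, against 16.6% of all detected rows under it. Over both kinds these were 49 of 52 units, against 20.8% of detected rows. In 30 of the 52 units every brain library exceeded every nonbrain library in both designs, against 7.06% of detected rows. Scaling moved the median of all rows to 0.65 with equal library totals and to -0.24 with quantile normalization, and changed the share of higher among all calls to 83.5% and 50.7%, against 73.6%. Relative to that median the units stood at 2.30, and at 2.36 and 2.07 under these scalings, and none turned direction. The number of units called higher was 26 with equal library totals, and 18 with quantile normalization, under which Pcdhb16, Pcdhga5, Pcdhga6, Pcdhga7, Pcdhga10 and Pcdhgc3 lost their call. Of all rows, 8371 of 31339 and 4975 of 30860 were higher under these scalings. In the lncRNA design alone 18 units were called higher, and in the splice junction design alone 19. Of the 30860 rows, 5772 and 3764 were higher in these single designs.

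**Figure D2:**
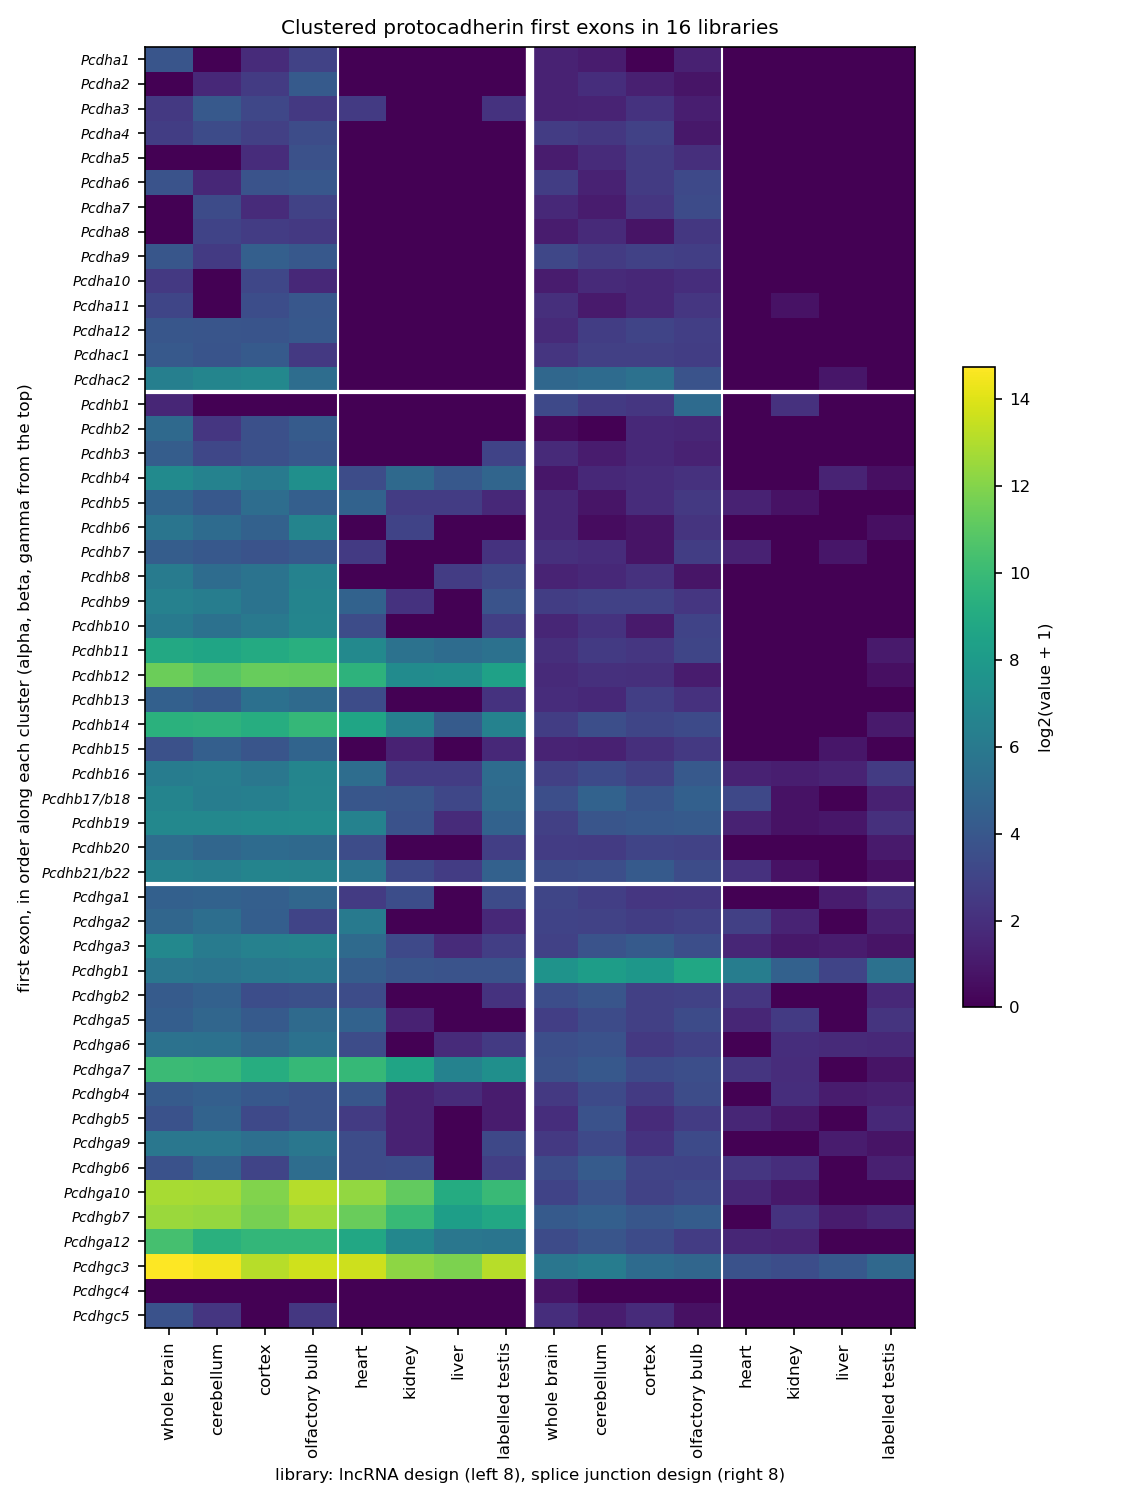
Heat map of log2(value + 1) for 52 variable exon units (rows, in genomic order within the alpha, beta and gamma clusters from the top) in 16 libraries (columns, lncRNA design to the left of the thick line, brain tissues first within each design). Alpha rows are dark outside the brain, and Pcdhgc3, Pcdhga10, Pcdhgb7 and Pcdhb12 are the brightest rows of the lncRNA design but not of the splice junction design.

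Of the C-type exons, Pcdhac2, which in mice is needed for the tiling of serotonergic axons, was the main source of alpha signal. It had values of 81.2, 102, 118 and 37.0 in whole brain, cerebellum, cortex and olfactory bulb in the lncRNA design and no fragment in any nonbrain tissue, and 28.7, 34.6, 44.9 and 12.8 in the splice junction design, against 1 fragment in liver and none elsewhere. Its brain libraries held 230.1 fragments in the lncRNA design, which was at least 54.6-fold higher relative to all fragments outside the spike-ins, with a floor of 3 fragments over the 4 nonbrain libraries. The fitted difference was 5.45 on the log2 scale (SE 0.43, limma adjusted p 3.7e-05), the largest among the tested units, and 5.42 without the tissue labelled testis. Pcdhac2 reached the limit of the test through its brain values, which favours a difference. Pcdhac1 stayed under the limit, with 4.37 to 17.3 in brain in the lncRNA design, 3.89 to 5.99 in the splice junction design and no fragment outside the brain.

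Pcdhgc3, whose tail domain was linked to dendrite growth through Axin1 in mouse neurons, was present in every tissue. Its values in the lncRNA design were 27071, 22399, 9089 and 12698 in whole brain, cerebellum, cortex and olfactory bulb, against 12328 in heart, 4772 in kidney, 3557 in liver and 9209 in the tissue labelled testis. The splice junction design gave 54.3, 72.4, 33.8 and 28.5 in brain, against 11.9, 10.0, 15.6 and 30.0. Brain and nonbrain libraries overlapped in both designs, through cortex in the lncRNA design and olfactory bulb in the other. The fitted difference of 1.38 was the smallest (SE 0.46, limma adjusted p 0.047), and the call was lost in 7 of 8 fits that left out a tissue, with adjusted p values up to 0.12, the exception being the fit without the tissue labelled testis (1.61, adjusted p 0.034).

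The remaining C-type exons were near the detection limit. Pcdhgc5 had 11.9, 3.99, 0 and 4.21 in the brain tissues of the lncRNA design and 0.594 to 2.85 in those of the splice junction design, and no fragment outside the brain. Pcdhgc4, which is required for the survival of cortical interneurons in mice, had 2.56 fragments in whole brain with the splice junction design and none in any other library. Its only transcript in the assembly began with a first exon of 153 nt, where the annotated variable exon measures 2905 nt. The transcripts of Pcdhgc5 began with a first exon of 147 nt, where the annotated one measures 2622 nt. The part of these short models in the low values was not tested.

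None of the 12 alternate alpha exons reached a mean of 10, and all 12 had higher averaged log2 values in every brain tissue than in any nonbrain tissue, as did 16.6% of all detected rows under this limit. Per kilobase of transcript and over the 8 brain libraries, the highest were Pcdha9 with 2.61 ± 1.28 in lncRNA libraries and 1.15 ± 0.23 in splice junction libraries (SD, n = 4 brain tissues), Pcdha12 with 2.68 ± 0.21 and 0.96 ± 0.37 and Pcdha6 with 2.12 ± 1.16 and 0.99 ± 0.50, and the lowest was Pcdha10 with 0.68 ± 0.62 and 0.40 ± 0.13. The 3 highest did not differ beyond the spread between tissues in either design. Pcdha12 and Pcdha10 lay apart by more than their SDs in both. Pcdha9 itself had 14.1, 4.71, 21.1 and 15.9 in whole brain, cerebellum, cortex and olfactory bulb in the lncRNA design. Outside the brain only Pcdha3 (1 fragment in heart and 3 in the tissue labelled testis, lncRNA design) and Pcdha11 (1 in kidney, splice junction design) had a fragment. Taken as a sum, alternate alpha exons held 247 and 435 brain fragments in the lncRNA and splice junction designs, against 4 and 1 nonbrain fragments.

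Of the 20 beta units, 13 were tested and all 13 were higher in brain, where 22.8% of all rows tested were. Some of them, Pcdhb10 included, reached the limit through their brain values, which favours a difference. Beta proteins carry the recognition domain without the shared tail, and most of their genes are single exons. Pcdhb12 led the lncRNA design with 2777, 1914, 2537 and 2389 in whole brain, cerebellum, cortex and olfactory bulb, against 744, 135, 149 and 337 in heart, kidney, liver and the tissue labelled testis. In the splice junction design it had no more than 3.07 in brain, and 0.533 in the tissue labelled testis as its only nonbrain value. Its log2 difference was 2.36 (SE 0.40, limma adjusted p 0.0020).

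Pcdhb14 and Pcdhb11 followed in the lncRNA design. Pcdhb14 had 568 to 880 in brain, against 405 in heart, 84.5 in kidney, 18.01 in liver and 92.3 in the tissue labelled testis, and Pcdhb11 had 410 to 629, against 119 in heart and 36.0 to 45.6 in the other nonbrain tissues. For both, heart was the nonbrain tissue nearest to brain without reaching it. The log2 differences of the tested beta units lay between 1.77 for Pcdhb4 (SE 0.38, adjusted p 0.0073) and 3.22 for Pcdhb10 (SE 0.52, adjusted p 0.0016, both limma), with a median of 2.70.

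Pcdhb16 was the beta member whose call was least stable. It had 72.4, 78.8, 56.1 and 105.0 in the brain tissues of the lncRNA design, against 38.2 in heart, 5.15 or less in kidney and liver and 36.5 in the tissue labelled testis, a log2 difference of 1.97 (SE 0.53, limma adjusted p 0.020). The adjusted p was over 0.05 in the limma fits without kidney, liver or olfactory bulb, up to 0.062. Pcdhb3 was the lowest beta exon per kilobase over the 8 brain libraries, with 3.56 ± 1.33 in lncRNA libraries and 0.48 ± 0.14 in splice junction libraries (SD, n = 4). Among the untested beta exons, Pcdhb5 was the only one whose groups overlapped, with 15.8 to 37.9 in brain and 23.8 in heart in the lncRNA design.

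In the gamma cluster, 7 of 8 tested A-type units and both tested B-type units were higher in brain, of 9 and 6 with a transcript. Of all rows tested, 22.8% were higher. Some of the A-type units, Pcdhga9 included, reached the limit through their brain values, which favours a difference. Pcdhga10 had 7126, 6884, 3983 and 8591 in whole brain, cerebellum, cortex and olfactory bulb in the lncRNA design, against 5137 in heart, 2366 in kidney, 523 in liver and 997 in the tissue labelled testis. Heart was above cortex on the deposited scale, on 1077 fragments against 2838 in cortex. Averaged over designs the groups did not overlap, and the log2 difference was 2.30 (SE 0.55, limma adjusted p 0.012). Pcdhgb7 had 5847, 5409, 3383 and 5968 in brain, against 2626, 980.2, 301.5 and 445 in the nonbrain tissues in the same order, a log2 difference of 2.86 (SE 0.40, limma adjusted p 6.9e-04). Nearly all of its brain value came from the transcript that also holds the exon of Pcdhga11 (5847 of whole brain and 3376 of cortex), while a transcript without that exon took 394 of the value in heart, 210.4 in kidney and 103 in the tissue labelled testis. How the authors' software divided fragments between these 2 transcripts was not tested.

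Pcdhga7 and Pcdhga12 completed the strongly captured A-type exons. Pcdhga7 had 1063, 987, 580.1 and 946 in brain in the lncRNA design, against 943 in heart, 394 in kidney, 92.8 in liver and 159 in the tissue labelled testis. Heart exceeded cortex here too, and the log2 difference of 2.04 (SE 0.60, limma adjusted p 0.030) was not called in 6 of 8 fits with a tissue left out, that without the tissue labelled testis included (1.83, adjusted p 0.066). Pcdhga12 had 1351, 649, 844 and 876 in brain, against 445, 112, 56.7 and 52.6, a log2 difference of 2.78 (SE 0.55, limma adjusted p 0.0045).

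Pcdhga2 was the tested unit that did not pass. Its lncRNA values were 27.6, 38.3, 19.96 and 6.96 in whole brain, cerebellum, cortex and olfactory bulb, against 62.2 in heart, 2.29 in the tissue labelled testis and 0 in kidney and liver. Heart was thus above every brain tissue on the deposited scale, on 13.05 fragments, against 29.2 in cerebellum. In the splice junction design heart had 5.90, within the 5.43 to 6.70 of the brain tissues. The log2 difference was 1.95 (SE 0.85, limma adjusted p 0.11). Pcdhga9 had the largest A-type difference, 3.02 (SE 0.44, limma adjusted p 8.8e-04), with 41.4 to 57.2 in brain and 0 to 9.57 in nonbrain tissues in the lncRNA design. Pcdhgb6, the third of the B types per kilobase, was not tested, with 11.8, 23.8, 7.14 and 37.6 in whole brain, cerebellum, cortex and olfactory bulb in the lncRNA design, against 9.58, 10.2, 0 and 5.72 in heart, kidney, liver and the tissue labelled testis. Cortex thus lay below heart and kidney in that design, on 5.09 fragments, against 2.01 in heart and 6.03 in kidney. In the splice junction design cortex was above both, with 7.19 against 4.00 in heart and 2.78 in kidney. Lowest per kilobase over the 8 brain libraries were Pcdhga1 among the A types, with 5.05 ± 0.63 in the lncRNA and 1.13 ± 0.34 in the splice junction design (SD, n = 4), and Pcdhgb5 among the B types, with 3.11 ± 1.56 and 1.23 ± 0.97.

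Over all 8 fits that left out a tissue, 21 of the 24 called units kept their call wherever they were tested, and the exceptions were Pcdhb16, Pcdhga7 and Pcdhgc3. Without the tissue labelled testis 23 units were called, and the one lost was Pcdhga7.

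**Figure D3:**
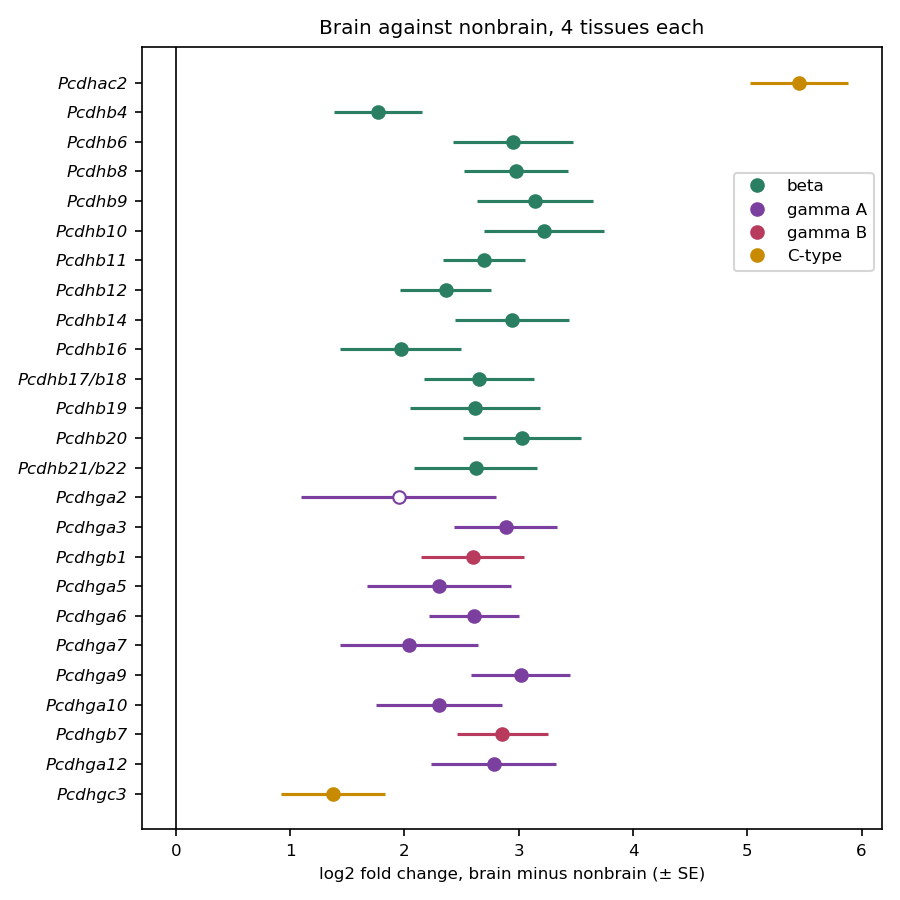
Log2 fold changes of brain over nonbrain tissues with their standard errors (horizontal axis) for 25 tested variable exon units (vertical axis, genomic order from the top), coloured by type. All lie to the right of 0, Pcdhac2 is farthest out at 5.45, and the open circle marks Pcdhga2, which did not pass the threshold.

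The order of the exons was shared between the capture designs to a different degree in each cluster. Across exons, Spearman's rho between the summed brain fragments of the designs was 0.74 for alpha (14 units), 0.71 for gamma (18 units) and 0.33 for beta (20 units), as a description only, since both designs used the same tissues. Of the 25 tested units, 21 were higher in the lncRNA design and 1 was lower (limma with tissue as a factor, 8 tissues), where 61% of all rows were higher and 33.7% lower, and the median difference of the units (2.89) was close to that of all rows (2.80). The largest log2 differences were those of Pcdhga10 at 9.71 (SE 0.25, adjusted p 1.2e-09), Pcdhb12 at 8.70 (SE 0.39), Pcdhgc3 at 8.57 (SE 0.26) and Pcdhgb7 at 8.22 (SE 0.44), each higher in the lncRNA design in 8 of 8 tissues. Pcdhga7, Pcdhga12, Pcdhb14 and Pcdhb11 followed at 6.49, 6.27, 6.25 and 6.02. For Pcdhac2 (0.62, adjusted p 0.097), Pcdhga2 (1.04, adjusted p 0.068) and Pcdhga5 (0.76, adjusted p 0.21) the adjusted p of limma missed the threshold, and quantile normalization turned all 3 to the opposite sign. That scaling left 9 units higher and 6 lower in the lncRNA design, where 14041 and 12676 of 30860 rows were. It left the share of higher among all calls at 52.6%, against 64.4%. The positions of the probes were not analysed here.

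Pcdhgb1 was the only tested unit that was lower in the lncRNA design, with a log2 difference of -1.55 (SE 0.38, limma adjusted p 0.0031). Its brain values were 57.0, 48.8, 59.6 and 66.6 in whole brain, cerebellum, cortex and olfactory bulb in the lncRNA design and 190.0, 296, 222 and 431 in the splice junction design. In each design the authors' software assigned most of the value to a different transcript. How it divided fragments between them was not tested. No transcript began in the exon of Pcdhga4, so fragments of that exon count here towards Pcdhgb1. The transcript that runs through the exon of Pcdhga4 held 48.8 to 66.6 of the brain values in lncRNA libraries and 12.97 to 20.2 in splice junction libraries, whereas the transcript spliced straight to the constant exons held 0 to 2.38 and 177 to 411. Brain was higher than nonbrain for Pcdhgb1 in both designs, with nonbrain values of 12.6 to 19.1 and 7.07 to 73.6, and a log2 difference of 2.60 (SE 0.45, limma adjusted p 0.0023).

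Shares of a cluster were therefore compared between brain tissues within a design. Pcdhac2 made up 22.3% of the alpha value in olfactory bulb in the lncRNA design (95% Wilson interval 16.0 to 30.8), against 56.7% in cerebellum (48.6 to 64.9) and 51.0% in cortex (43.4 to 58.4), and 46.6% in whole brain (36.1 to 56.4). With the splice junction design the share was 19.3% in olfactory bulb (14.3 to 26.4), against 48.2% in cerebellum (41.1 to 55.3) and 47.7% in cortex (41.8 to 54.0), and 42.7% in whole brain (36.5 to 49.1). The intervals of olfactory bulb and of the other tissues did not overlap in either design. They cover counting error only, and the fragments were divided between isoforms by the authors' software.

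Alpha signal was accordingly spread over more exons in olfactory bulb. The effective number of exons, the exponential of the Shannon entropy of the shares, was 11.1 and 10.9 of 14 there in the lncRNA and splice junction designs, and 4.77 to 6.37 and 6.81 to 7.69 in the other brain tissues. This number includes Pcdhac2, so it also reflects the lower share of that exon in olfactory bulb. In lncRNA libraries it rests on 89 to 165 alpha fragments per brain tissue. With the C-type exons left out, its mean over the 4 brain tissues was 8.54 and 9.80, which does not compare the tissues.

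Pcdhgc3 took 63.1% of the gamma value in whole brain, 61.0% in cerebellum, 50.0% in cortex and 43.1% in olfactory bulb in the lncRNA design, each with a Wilson interval of less than 1 percentage point on either side. The order was the same in the splice junction design, at 15.1%, 13.4%, 9.42% and 4.94%, where the intervals of whole brain (13.2 to 17.2) and cerebellum (11.8 to 15.3) overlapped. Outside the brain its share in the lncRNA design was 56.9% in heart, 55.0% in kidney, 78.2% in liver and 84.4% in the tissue labelled testis, so that heart and kidney lay within the range of the brain tissues. Pcdhgb1 held 52.7%, 54.9%, 62.1% and 74.7% of the gamma value in whole brain, cerebellum, cortex and olfactory bulb in the splice junction design and at most 0.327% in the lncRNA design.

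**Figure D4:**
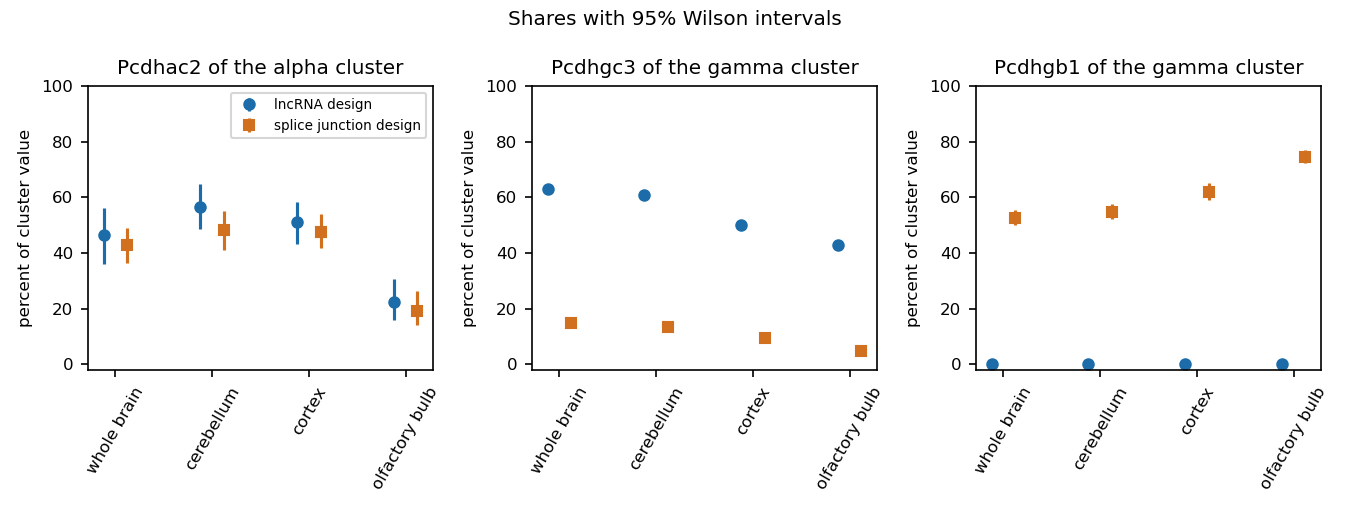
Percent of the cluster's value (vertical axis) held by Pcdhac2, Pcdhgc3 and Pcdhgb1 in 4 brain tissues (horizontal axis), with 95% Wilson intervals, circles for the lncRNA design and squares for the splice junction design. The share of Pcdhac2 is lowest in olfactory bulb in both designs at 22.3% and 19.3%, and Pcdhgb1 is near 0 in the lncRNA design.

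For beta, the designs gave different leading exons. Pcdhb12 held 57.1%, 50.6%, 57.7% and 47.3% of the beta value in whole brain, cerebellum, cortex and olfactory bulb in lncRNA libraries and 0.742% to 2.89% in splice junction libraries. The unit of Pcdhb17 and Pcdhb18 led the splice junction design in whole brain (13%) and cerebellum (22.0%), that of Pcdhb21 and Pcdhb22 in cortex (15.5%) and Pcdhb1 in olfactory bulb (21.3%). These shares were not divided by transcript length, and the joined units hold neighbouring genes together. Per kilobase, Pcdhb1 led whole brain (3.35, against 1.07 for Pcdhb17 with Pcdhb18). Pcdhb19 led cortex (2.19, against 1.55 for Pcdhb21 with Pcdhb22), and cerebellum and olfactory bulb kept their leading units. The effective number of beta exons averaged 5.47 ± 0.60 in the lncRNA design and 14.1 ± 1.35 of 20 in the splice junction design (SD, n = 4 brain tissues).

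Regional levels were compared as each subregion against the mean of the other 2, without a test, since a subregion has 1 library per design. A member counted as regional where it differed at least 2-fold in the same direction in both designs, among 34 units with a mean of at least 10 over the 6 subregion libraries. In cerebellum 3 units were higher (8.82%, against 5.28% of all rows) and none lower (6.97% of all rows), in cortex none was higher or lower (5.49% and 4.31% of all rows), and in olfactory bulb 1 was higher and 1 lower (2.94% each, against 5.82% and 3.4%). These shares are near those of all rows.

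Pcdhac2 was the member that was lower in olfactory bulb, by -1.54 in lncRNA libraries and -1.55 in splice junction libraries on the log2 scale. Its values there were 37.0 and 12.8, against 102 and 34.6 in cerebellum and 118 and 44.9 in cortex, and whole brain with 81.2 and 28.7 lay between them. The difference was found with every alternative tried except a limit of 3-fold. Summed neuron markers in olfactory bulb were at 17539 and 28334, against 8296 and 24084 in cerebellum and 20600 and 35750 in cortex, and oligodendrocyte markers at 3414 and 35770, against 4269 and 61469 in cerebellum and 4582 and 62626 in cortex. Their part in the result was not tested.

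Pcdhgc3 was higher in cerebellum by 1.06 and 1.20 on the log2 scale in the lncRNA and splice junction designs. It had 22399 and 72.4 there, against 9089 and 33.8 in cortex and 12698 and 28.5 in olfactory bulb, but whole brain was as high at 27071 and 54.3, and with whole brain among the tissues compared the difference was under 2-fold. Choroid plexus markers moved in the same way, with sums of 125 and 3551 in cerebellum, against 11.2 and 295 in cortex and 5.53 and 324 in olfactory bulb, and 119 and 2965 in whole brain. The list's 4 genes with a gene model, of 5 listed, were detected in both designs, and their sum was highest in kidney at 1071 and 33499. Their part in the level of Pcdhgc3 was not tested.

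The other regional members had few fragments. Pcdhgb5 was higher in cerebellum by 1.20 and 1.49 on the log2 scale, with 19.1 and 31.9 fragments, against 6.10 and 6.87 in cortex and 9.07 and 12.97 in olfactory bulb. Pcdhgb2 was just past the limit there at 1.02 and 1.03, and fell short of it with equal library totals. Pcdhb6 was higher in olfactory bulb by 1.81 and 1.58, with 72 and 9 fragments, against 26 and 1 in cerebellum and 16 and 2 in cortex. All 3 fell under the limit with a pseudocount of 10.

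Pcdhb1 differed between subregions in 1 design only. In the splice junction design it had 34.8 in olfactory bulb (86 fragments), against 4.601 in cerebellum (12 fragments) and 4.09 in cortex (11 fragments), and 8.68 in whole brain. In the lncRNA design it had 1 fragment in whole brain and none elsewhere, so the difference was not detectable there.

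**Figure D5:**
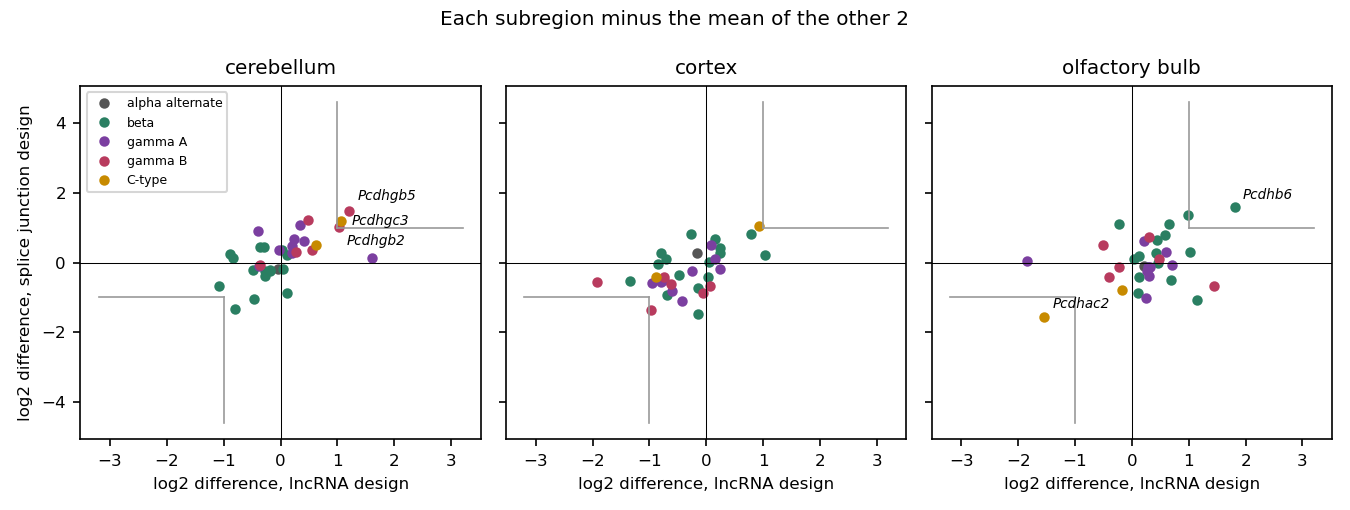
Log2 difference of cerebellum, cortex and olfactory bulb from the mean of the other 2 subregions, lncRNA design on the horizontal and splice junction design on the vertical axis, with 1 point for each of 34 variable exon units. Grey corners mark differences of at least 2-fold in both designs, which hold Pcdhgb2, Pcdhgb5 and Pcdhgc3 in cerebellum, none in cortex, and Pcdhb6 (higher) and Pcdhac2 (lower) in olfactory bulb.

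Outside the members' transcripts, 25 models were found in the region, 13 of which were tested and 5 of which were higher in brain. They include the remaining transcripts of the members' own gene models. Those of the Pcdhb9 gene model were among the 5 (3.36, SE 0.61, limma adjusted p 0.0029), and those of the gamma gene model were not tested. Of all rows tested, 22.8% were higher in brain. The pseudogene model Gm19035, between Pcdha12 and Pcdhac1, had 102, 566, 737 and 1317 in whole brain, cerebellum, cortex and olfactory bulb in the lncRNA design, against 0 in heart and liver, 1.69 in kidney and 1.14 in the tissue labelled testis (log2 difference 4.54, SE 0.51, limma adjusted p 2.2e-04). Gm37446 runs antisense to part of Pcdhb12, at chr18:37433412-37437547 on the minus strand, and had 229, 365, 550.1 and 1097 in brain, against 38.2, 3.38, 2.57 and 25.1 in heart, kidney, liver and the tissue labelled testis (2.98, SE 0.54, limma adjusted p 0.0030). The library kit keeps strand, but the stated settings of the aligner name no library type. Fragments of Pcdhb12 and Gm37446 may therefore not be told apart. The same limit holds for Gm26672 on the minus strand, which overlaps the exons of Pcdhga10, Pcdhgb7, Pcdhga11 and Pcdhga12. It had 2.81 to 20.7 in brain in the lncRNA design. 3222401L13Rik, a noncoding model upstream of Pcdhga1, was highest in heart with 8877, against 799.9 to 3199 in brain, and did not pass the test (0.99, SE 0.68, limma adjusted p 0.30).

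The lists of related genes were set beside the members with the same fit, in which 22.8% of all rows were higher and 8.18% lower. Regulators of promoter choice, such as CTCF, cohesin and DNA methyltransferases, had 3 of 22 genes higher in brain and 1 lower, with a median of 0.35, the same as that of all rows. The higher ones were Pds5b (2.23, SE 0.32, adjusted p 8.0e-04) and Stag1 (1.13, SE 0.37, adjusted p 0.044), both of the cohesin complex, and the DNA methyltransferase Dnmt3a (1.43, SE 0.34, adjusted p 0.011). Rest, the repressor of neuronal genes outside the nervous system, was lower (-3.09, SE 0.37, adjusted p 3.1e-04, all limma). Its lncRNA values were 731 to 1902 in brain, against 9464 to 16678 in nonbrain tissues. Ctcf itself had a difference of 0.24 (SE 0.37, adjusted p 0.67).

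The shares of all rows, 22.8% higher and 8.18% lower, apply to the next lists as well. Signalling and processing partners had 7 of 19 tested genes higher and none lower, also at an unadjusted p under 0.05, with a median of 1.22. Among them were the kinase Fyn (3.05, SE 0.47, limma adjusted p 0.0012) and Adam10, the protease that sheds protocadherin ectodomains (1.29, SE 0.34, limma adjusted p 0.018). Of the nonclustered protocadherins, which are encoded by separate genes with their own tails, 7 of 12 were higher and 1 was lower, with a median of 3.27. Pcdh17 had 53.8 to 180.0 in brain and 9.54 to 37.2 in nonbrain tissues in the lncRNA design (2.77, SE 0.61, limma adjusted p 0.0079), and Pcdh12, an endothelial protocadherin, was lower (-3.84, SE 0.55, limma adjusted p 8.1e-04). Of the classical cadherins, 11 of 16 were higher and 1, the epithelial Cdh1, was lower (-3.29, SE 1.01, limma adjusted p 0.035), with a median of 3.68. The call of Cdh1 was lost with equal library totals and in either design alone.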

How the data were processed

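Tissue and design of the 16 libraries were taken from the sample labels. The authors aligned reads to GRCm38 with TopHat2, assembled them with Cufflinks 2.2.1 guided by GENCODE M4, and merged the assemblies with Cuffmerge. The deposited signal values are Cuffnorm 2.2.1 estimates of fragments per transcript, scaled by the authors with a factor for each library. Sums over a gene model were whole multiples of a step within 0.1 (up to 20 steps, all sums), which gave fragments. Spike-ins were left out of every test. Transcripts were assigned to members by their first exon, with GENCODE M21 on GRCm38.

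Log2(value + 1), averaged over designs, was compared with limma 3.58.1 in R 4.3.3 for rows with a mean of at least 10, with Benjamini-Hochberg adjustment over all rows, at 0.05. The fit was tested on simulated data first. Sums were tested by exact permutation with SciPy 1.17.1 in Python 3.11.15. Members and lists were chosen with earlier results of these data known. Named were the C-type exons, in each other class the 3 highest and the lowest per kilobase, the largest and smallest fold changes, members past the regional limit, and members short of the threshold. Alternatives were other pseudocounts, filters, scalings, single designs, other transcript assignments and tissues left out in turn.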

Additional observations from a re-analysis of the deposited data

Results flagged for a closer look

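Among 56 groups of 4 tissues (25 tested units and 3 cluster sums, brain and nonbrain), Dixon's test at its 95% level marked 2, where chance marks about 1 in 20. Pcdhgb7 in cortex was far under the other brain tissues, at an averaged log2 value of 7.84, against 8.35 to 8.42 in whole brain, cerebellum and olfactory bulb. Pcdhac2 in liver was apart from the other nonbrain tissues, at 0.45, against 0, and rests on 1 fragment of the splice junction design.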

How the results depend on the processing

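Leaving out 1 tissue gave 18 to 23 units higher in brain, and cluster differences of 5.96 to 6.26 (alpha), 2.85 to 3.52 (beta) and 1.81 to 2.49 (gamma), each with an exact p of 0.0571. The lncRNA design alone gave 1.62 for gamma. Without a filter 48 units were higher in brain, where 8856 of 46080 rows were. In the lncRNA design 33 units were then higher and 2 lower, where 21852 rows were higher and 14169 lower. Quantile normalization gave 9 higher and 6 lower in the lncRNA design, and turned Pcdhac2 (-1.50), Pcdhb6 (-0.42), Pcdhga2 (-1.88), Pcdhga5 (-2.26), Pcdhga6 (-1.74) and Pcdhga9 (-0.87); the cause was not tested. Of the cadherins, 0 were lower with equal totals or in either design alone, 2 with quantile normalization, and 0 to 1 with a tissue left out. The splice junction design alone gave 3 lower regulators. Regional members at 1.5-fold were 2 lower in cerebellum, 2 higher and 5 lower in cortex and 3 higher in olfactory bulb, and at 3-fold 0 higher in cerebellum and 0 higher and 0 lower in olfactory bulb. A pseudocount of 10 left 1 higher in cerebellum and 0 in olfactory bulb, whole brain in the base 1 in cerebellum, and equal totals gave 1 lower in cortex. Per kilobase, the effective number of beta exons in the lncRNA design was 4.21. The other 209 values of counts and cluster comparisons kept their direction and side. No paired analysis was possible because the labels give every library the same replicate number, other than pairing the designs by tissue, which their comparison holds as a factor.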
